A study of Mus musculus with 15 samples.

Results

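The 9 genes described here mark tuft cells in the mouse gut: Pou2f3, Gfi1b, Sucnr1, Trpm5, Avil, Dclk1, Alox5, Ptgs1 and Il25. They were taken as a list of symbols known from tuft cells, and all 9 were listed among the 17752 genes found in at least 1 of the 15 libraries. The study asked whether oral proanthocyanidins (PAC), condensed tannins of plants, alter gene expression in the intestine, and whether polymer size matters. Each library was made from the ileum of 1 mouse, and all 15 mice were female C57BL/6 animals aged 8 weeks per the labels (C57BL/6JOlaHsd in the methods) and fed a purified diet. The water group (n = 5) received the vehicle by gavage. The low PAC group (n = 5) and the high PAC group (n = 5) received grape pomace PAC of low or high molecular weight in water at 200 mg/kg every 2 days over 10 days. The methods name the larger fraction by a medium, not a high, mean degree of polymerization, and the label name is kept here. Nothing else separates the groups in the labels.

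Tuft cells are rare chemosensory cells of the intestinal epithelium, and the transcription factor POU2F3 is required for them to form. Luminal metabolites such as succinate, which binds the receptor SUCNR1, trigger a taste-like cascade through G proteins, phospholipase C and the cation channel TRPM5. The cell answers with the cytokine IL-25 and with lipid mediators made by ALOX5 and PTGS1, which act on type 2 innate lymphocytes, and interleukin 13 from those lymphocytes in turn drives the epithelium to form more tuft and goblet cells. Several of these genes are not expressed by tuft cells alone: ALOX5 is a leukocyte enzyme, PTGS1 is found in many stromal cells, AVIL and DCLK1 in neurons and GFI1B in megakaryocyte and erythroid precursors.

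Total expected counts ranged from 15963086 to 17903886 per mouse, with 16138 to 16392 genes listed. The library of high PAC mouse 3 stood apart, with a median r with the other libraries of 0.970 where the other 14 had 0.981 to 0.990. Levels are given as FPKM, the fragments mapped to a gene scaled by its length and by the size of the library, so that levels of different genes can be set side by side. Epithelium was well represented, with the general epithelial marker Epcam between 892 and 1179 FPKM. The pieces of gut differed in what else they held. Summed FPKM of 6 smooth muscle markers lay between 552 and 1068 in 13 mice and at 302 and 261 in water mice 1 and 3. By 6 B cell markers the mice fell into separate sets, with 53.4 to 181 FPKM in 7 mice (3 water, 2 low PAC and 2 high PAC) and 3.36 to 5.77 FPKM in the other 8.

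The members were expressed at low levels in the whole ileum, and their order was Ptgs1, Dclk1, Trpm5, Avil, Pou2f3, Alox5, Sucnr1, Gfi1b and Il25 in water mice. Ptgs1 stood at 10.6 ± 1.34 FPKM (SD, n = 5) and Il25 at 0.094 ± 0.0760 FPKM. Ranges over the water mice overlapped between Dclk1 and Trpm5, between Trpm5 and Avil, between Pou2f3 and Alox5, between Alox5 and Sucnr1 and between Gfi1b and Il25. Within single mice Dclk1 was nonetheless above Trpm5, and Gfi1b above Il25, in 5 of 5 water mice, and the other 3 of these neighbours kept their order in 4 of 5. Summed over the 9 genes, FPKM ranged from 19.4 to 24.9 in water, from 22.2 to 29.0 in low PAC and from 21.0 to 30.4 in high PAC mice. In the edgeR test (quasi-likelihood, Benjamini-Hochberg over 14386 genes), 7 of the 9 members passed the filter on low counts. Il25 and Gfi1b did not.

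**Figure D1:**
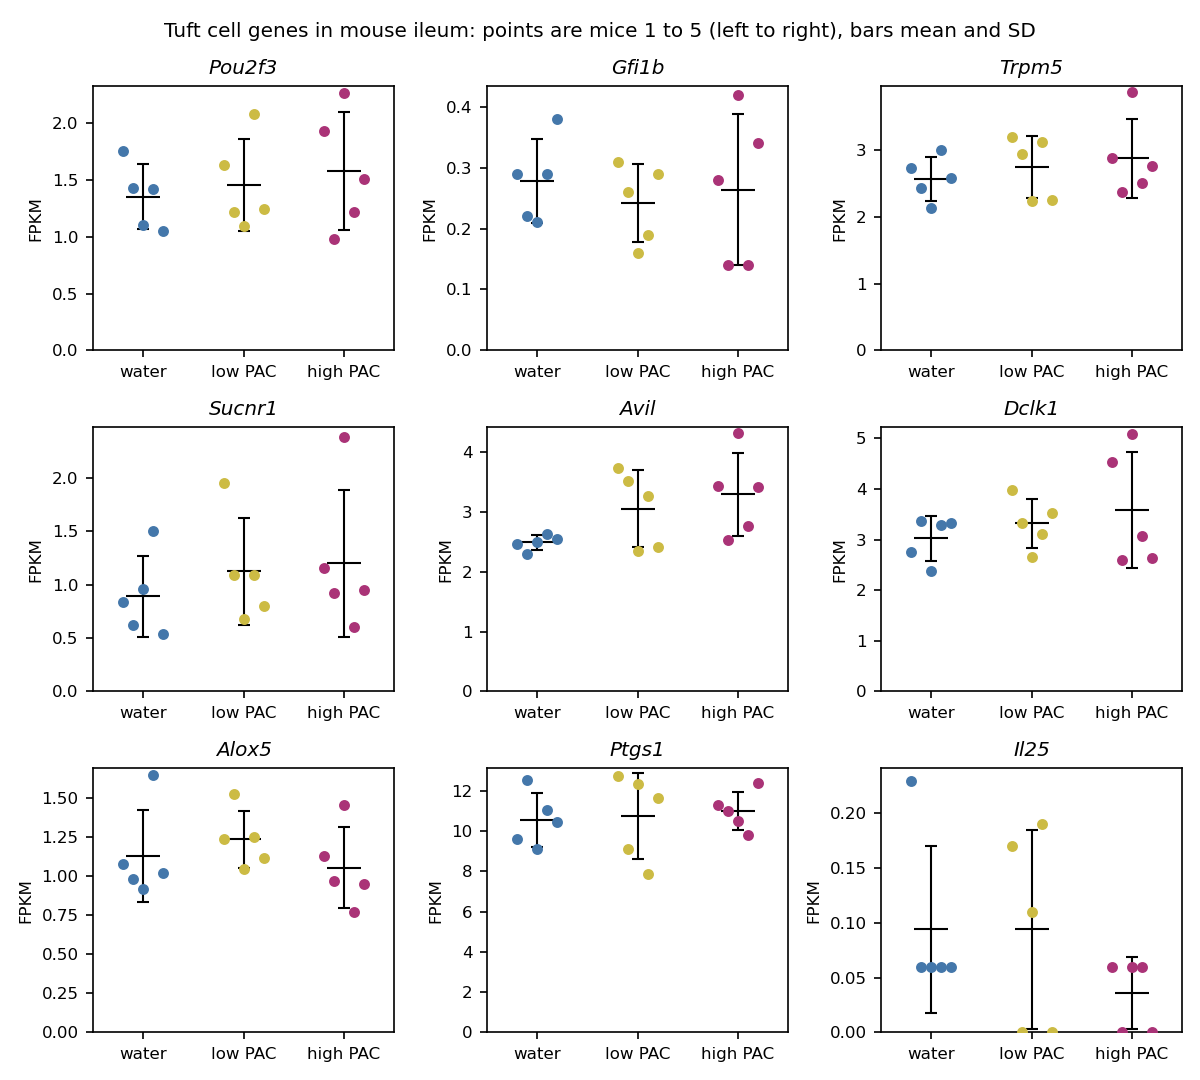
FPKM of the 9 tuft cell genes (vertical axes, each from 0) in water, low PAC and high PAC mice. Points are single mice, horizontal bars means and whiskers SD (n = 5); the groups overlap for every gene, and for Avil 4 of 5 high PAC mice lie above the highest water mouse.

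Pou2f3 (chr9:43123939-43210369, minus strand, GRCm38), the factor that specifies the lineage, measured 1.75, 1.43, 1.10, 1.42 and 1.05 FPKM in water mice 1 to 5. It measured 1.63, 1.22, 1.09, 2.08 and 1.24 FPKM in the low PAC mice and 1.93, 0.98, 2.26, 1.22 and 1.51 FPKM in the high PAC mice. The groups overlapped, and both the lowest and the highest value were in high PAC. The edgeR log2 fold change was 0.12 (SE 0.23, adjusted p = 0.833) for high PAC against water and 0.04 (SE 0.23, adjusted p = 0.992) for low PAC against water. Gfi1b (chr2:28609450-28621982, minus strand), a zinc finger repressor enriched in tuft cells, rested on 4 to 12 expected counts per mouse. Its FPKM was 0.29, 0.22, 0.21, 0.29 and 0.38 in water, 0.31, 0.26, 0.16, 0.19 and 0.29 in low PAC and 0.28, 0.14, 0.42, 0.14 and 0.34 in high PAC mice. At this depth no difference was detectable, and two-sided exact permutation gave p = 0.698 for high PAC against water and p = 0.381 for low PAC against water. Of the related factors that other cells use, Pou2f1 lay between 2.29 and 3.31 FPKM and Pou2f2 between 0.79 and 9.77 FPKM over the 15 mice, beside Pou2f3 at 0.98 to 2.26 FPKM. Gfi1, at 1.82 to 2.64 FPKM, lay above every value of Gfi1b.

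Sucnr1 (chr3:60081869-60087566, plus strand), the succinate receptor, varied most among the members that passed the filter, with a coefficient of variation of 48.1% over the 15 mice. Its FPKM was 0.84, 0.62, 0.96, 1.5 and 0.54 in water mice, 1.95, 1.09, 0.68, 1.09 and 0.80 in low PAC mice and 1.15, 0.92, 2.38, 0.60 and 0.95 in high PAC mice. One mouse in each group stood above the rest, at 1.5, 1.95 and 2.38 FPKM. The log2 fold change for high PAC against water was 0.31 with a 95% interval from -0.49 to 1.12 (adjusted p = 0.701), the widest interval of the 7 members tested in that comparison. Trpm5 (chr7:143069153-143094642, minus strand), the channel that depolarises the cell, was steadier. It measured 2.73, 2.43, 2.13, 3.01 and 2.59 FPKM in water, 3.20, 2.94, 2.24, 3.13 and 2.25 FPKM in low PAC and 2.88, 2.37, 3.88, 2.51 and 2.76 FPKM in high PAC mice. High PAC mouse 3 was the highest of the 15, and the other 14 values lay between 2.13 and 3.20 FPKM. Its log2 fold changes were 0.06 (SE 0.15, adjusted p = 0.864) for high PAC and 0.04 (SE 0.15, adjusted p = 0.989) for low PAC against water.

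Avil (chr10:127000709-127020994, plus strand) encodes advillin, an actin-binding protein of the villin family found in the microvilli of tuft cells. It measured 2.47, 2.30, 2.50, 2.63 and 2.55 FPKM in water mice, 3.74, 3.51, 2.34, 3.27 and 2.41 FPKM in low PAC mice and 3.44, 2.53, 4.32, 2.77 and 3.41 FPKM in high PAC mice. The water mice lay within 0.33 FPKM of each other, and 3 of 5 low PAC and 4 of 5 high PAC mice lay above all of them, while the remaining PAC mice fell within the water range. Group means were 2.49 ± 0.122 in water, 3.05 ± 0.642 in low PAC and 3.29 ± 0.697 FPKM in high PAC (SD, n = 5). The edgeR log2 fold change was 0.30 for high PAC against water (95% interval -0.02 to 0.63, adjusted p = 0.371) and 0.24 for low PAC against water (95% interval -0.09 to 0.57, adjusted p = 0.976). Exact permutation of the values on the log2(FPKM + 0.1) scale, two-sided and with 0.0079 as its smallest possible p, gave p = 0.0238 for high PAC against water and p = 0.151 for low PAC against water. The first was the only one of 27 such tests under 0.05, and it is not corrected for the 27. On the FPKM scale the median of all genes was itself 0.09 (log2) higher in high PAC than in water mice. Villin itself (Vil1), the protein of the enterocyte brush border, stood at 900 ± 71.9 FPKM in water mice.

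Dclk1 (chr3:55242364-55539068, plus strand), a microtubule-associated kinase that is the usual histological marker of tuft cells, measured 2.76, 3.37, 2.38, 3.28 and 3.32 FPKM in water mice. It measured 3.98, 3.32, 2.66, 3.12 and 3.52 FPKM in low PAC and 4.54, 2.59, 5.09, 3.08 and 2.64 FPKM in high PAC mice. High PAC mice 1 and 3 were the highest of the 15, while the other 3 high PAC mice lay inside the water range. The SD was 1.15 FPKM in high PAC against 0.435 in water. The log2 fold change was 0.13 (SE 0.16, adjusted p = 0.708) for high PAC and 0.10 (SE 0.16, adjusted p = 0.980) for low PAC against water.

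Among the effectors, Alox5 (chr6:116410077-116461178, minus strand) encodes 5-lipoxygenase, which starts leukotriene synthesis. It measured 1.08, 0.98, 0.92, 1.65 and 1.02 FPKM in water, 1.24, 1.53, 1.05, 1.25 and 1.12 FPKM in low PAC and 1.13, 0.97, 1.46, 0.77 and 0.95 FPKM in high PAC mice. Water mouse 4 was the highest of the 15. With all mice Alox5 had the lowest estimate for high PAC among the 7 members tested, at -0.20 against water (SE 0.20, adjusted p = 0.634) and -0.28 against low PAC (SE 0.19, adjusted p = 0.896). Without water mouse 4 the estimate against water was -0.02. Ptgs1 (chr2:36230426-36252272, plus strand) encodes cyclooxygenase-1. It measured 9.64, 12.54, 9.10, 11.07 and 10.46 FPKM in water, 12.74, 9.11, 12.36, 7.87 and 11.67 FPKM in low PAC and 11.30, 10.99, 10.49, 9.83 and 12.42 FPKM in high PAC mice. The groups overlapped, and its log2 fold change was -0.03 (SE 0.12) in both comparisons with water, with adjusted p = 0.911 for high PAC and adjusted p = 0.989 for low PAC. Il25 (chr14:54932695-54935837, plus strand), the cytokine that tuft cells send to innate lymphocytes, was at the limit of detection. The 5 water mice summed to 8 expected counts, the low PAC mice to 8 and the high PAC mice to 3. Water mouse 1 had 0.23 FPKM and the other water mice 0.06 FPKM. Low PAC mice 1, 3 and 4 had 0.17, 0.11 and 0.19 FPKM, high PAC mice 1, 3 and 4 had 0.06 FPKM, and mice 2 and 5 of both PAC groups had no entry for Il25 and count as 0. With 0 to 4 counts per mouse a difference was not detectable, and the exact permutation test gave p = 0.278 for high PAC against water and p = 0.889 for low PAC against water.

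Over all 9 members, no comparison separated the groups. With edgeR, 0 of the 7 members tested had an adjusted p under 0.05 for high PAC against water, where 0.0139% of all genes tested did, and 0 had an unadjusted p under 0.05, where 14.8% of all genes did (4.37% with a higher and 10.4% with a lower level in high PAC). For low PAC against water the counts were again 0 of 7 at either threshold, against 0% and 3.61% of all genes (1.4% with a higher level in low PAC), and for high PAC against low PAC 0 of 7, against 0% and 3.89% (1.84% with a higher level in high PAC). No alternative normalization, filter, covariate or tool that was tried, DESeq2 and limma among them, gave a member an adjusted p under 0.05. FPKM ranges overlapped in all 27 combinations of member and comparison; over all genes tested they did not overlap for 4.64% in high PAC against water, for 0.605% in low PAC against water and for 0.737% in high PAC against low PAC. Estimates were above 0 for 5 of 7 members in high PAC against water and for 6 of 7 in low PAC against water, where 50.5% and 45.5% of all genes were above 0, and for 5 of 7 in high PAC against low PAC, beside 51.4%. The median log2 fold change of the 7 was 0.12, 0.08 and 0.03, beside 0.00, -0.01 and 0.00 over all genes. Each pair of these comparisons shares a group of mice, so they are not independent of each other. Without high PAC mouse 3, the library that stood apart, the estimate for high PAC against water was above 0 for 3 of 7 members, their median was -0.00, and Avil was at 0.23 (adjusted p = 0.557). For the pair of PAC fractions, given at the same dose and time, the 95% interval of the log2 difference was narrowest for Ptgs1, at -0.26 to 0.25, and widest for Sucnr1, at -0.75 to 0.84, so differences of up to that size between the fractions lie within the error. In tissue RNA, fewer tuft cells and less RNA per tuft cell cannot be told apart.

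**Figure D2:**
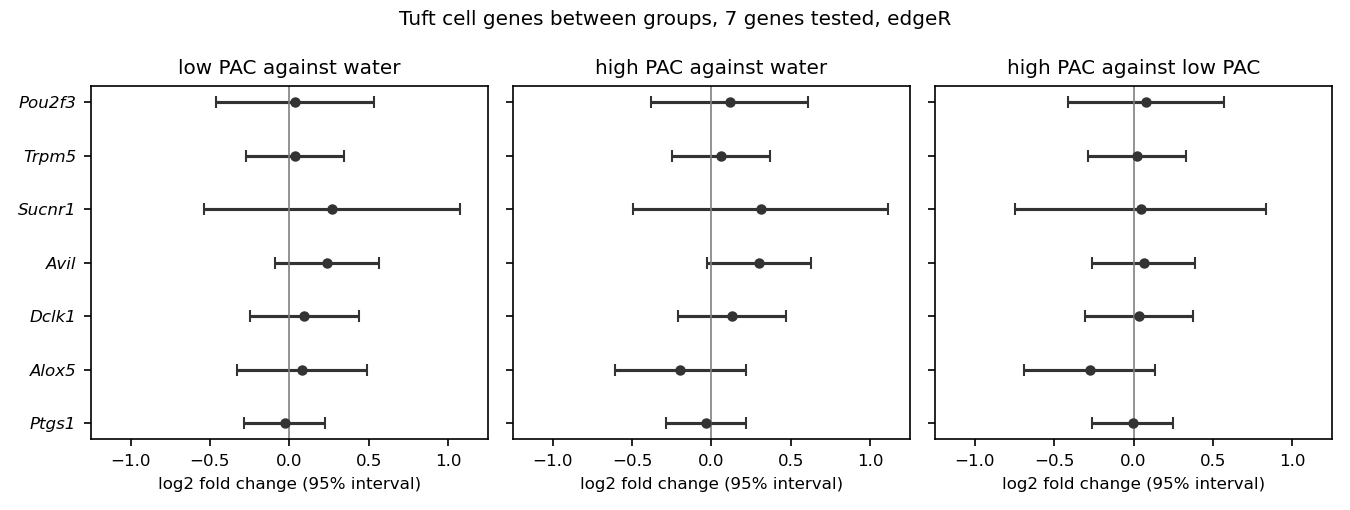
edgeR log2 fold changes (horizontal axis) of the 7 members that passed the filter on low counts, in 3 comparisons. Points are estimates and whiskers 95% intervals; every interval includes 0, and that of Avil for high PAC against water comes nearest to leaving it out (-0.02 to 0.63).

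The share of the variance of log2(FPKM + 0.1) that lay between groups was 32.8% for Avil and 2.07% to 15.1% for the other 8 members, with a median of 16.2% over all genes tested. Most of the variation of these genes, as of most genes, was thus among mice of the same group. After subtraction of group means, 28 of the 36 pairs of members correlated positively over the 15 mice, with a median Pearson r of 0.54. The members' median r with the 13363 other genes whose mean was at least 0.5 FPKM was between -0.03 and 0.13. The 7 members Pou2f3, Gfi1b, Sucnr1, Trpm5, Avil, Dclk1 and Alox5 formed 21 pairs with r from 0.49 to 0.88. These 7 are what remains once Ptgs1 and Il25, the members with the lowest r, are set aside, so that the positive sign of all 21 is in part fixed by the choice and is a description. Permutation within groups (100000 resamples, Benjamini-Hochberg over the 36 pairs) gave an adjusted p under 0.05 for 8 pairs by Pearson r and 7 by Spearman rho. Trpm5 and Avil, the channel and the microvillar protein, were the closest pair, with r = 0.88 and rho = 0.89 (permutation p = 0.00041 and 0.0002, adjusted p = 0.013 and 0.0036). With the pair of mice most distant from the median Trpm5 value left out, r was 0.82.

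Trpm5 took part in 5 of the 8 pairs. Besides Avil its partners were Alox5 (r = 0.79, rho = 0.84), Pou2f3 (r = 0.78, rho = 0.73), Sucnr1 (r = 0.77, rho = 0.72) and Dclk1 (r = 0.68, rho = 0.60). The adjusted permutation p of these was 0.013, 0.0202, 0.0202 and 0.0439 by r and 0.0036, 0.0387, 0.0387 and 0.0674 by rho. Dclk1 and Trpm5 was the pair that passed by r and not by rho. The remaining 3 pairs were Sucnr1 with Alox5 (r = 0.78, rho = 0.71), Sucnr1 with Avil (r = 0.77, rho = 0.79) and Alox5 with Avil (r = 0.65, rho = 0.75), with adjusted permutation p of 0.0202, 0.013 and 0.0219 by r and 0.0387, 0.0116 and 0.0211 by rho. With the 2 most distant mice left out, r was 0.81, 0.59 and 0.62 for these 3 pairs, 0.69, 0.67 and 0.63 for Trpm5 with Alox5, Pou2f3 and Sucnr1, and 0.46 for Dclk1 with Trpm5. Ptgs1, in contrast, had r between -0.21 and 0.21 with the other 8 members, and Il25, with its few counts, between -0.05 and 0.61 with the other 7.

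**Figure D3:**
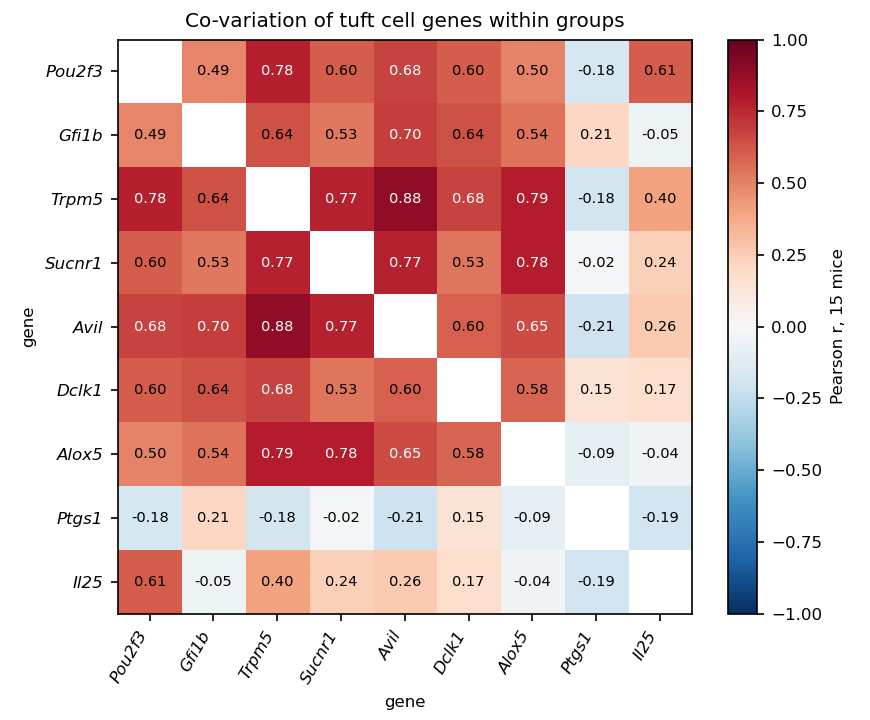
Pearson r between tuft cell genes over 15 mice after the group mean was subtracted from log2(FPKM + 0.1); both axes list the genes and the colour gives r. The 7 genes from Pou2f3 to Alox5 share r of 0.49 to 0.88, Ptgs1 lies between -0.21 and 0.21, and Il25 reaches 0.61 with Pou2f3.

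Single mice carried much of this pattern. High PAC mouse 3, whose library was the least like the others over all genes, was the highest of its group for 8 of 9 members, tied with 2 others for Il25, and the highest of all 15 mice for 6. Low PAC mouse 1 and high PAC mouse 1 were above their group mean for all 9 members, and water mouse 4 for 8. High PAC mice 2 and 4 were above it for 1 member each. Without high PAC mouse 3 the median r over the 36 pairs was 0.38, the 21 pairs of the 7 members had r from 0.29 to 0.83, and Trpm5 with Avil had r = 0.83. Within the 8 mice with few B cell transcripts, centred again within groups, the median r of the 21 pairs was 0.37 with 18 positive, and within the 7 mice with many it was 0.56 with 20 positive. These sets were drawn after the values were seen and are given as a description.

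**Figure D4:**
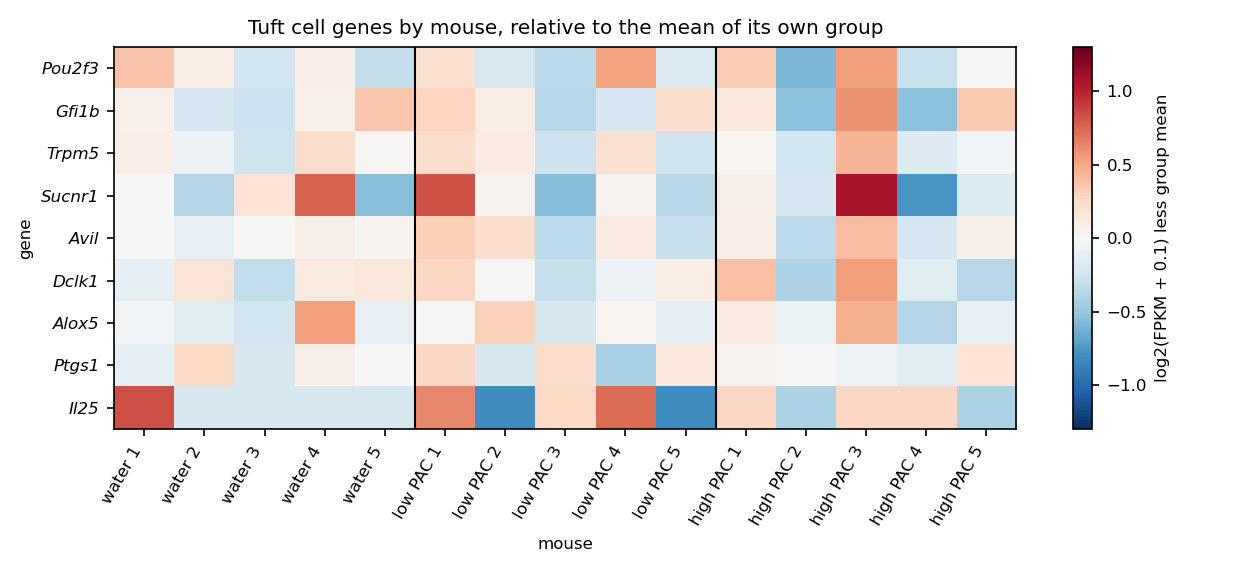
Deviation of each tuft cell gene (rows) from its group mean in each of 15 mice (columns), as log2(FPKM + 0.1) less the group mean, in colour. High PAC mouse 3 is above the mean in 8 of 9 rows and high PAC mouse 2 below it in 8 of 9.

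RefSeq promoter windows (GRCm38.p6, 250 bases before to 50 after each start site) were matched for 7 of the 9 members, with 8 windows because Dclk1 has 2; Pou2f3 and Il25 were not among them. The upstream 250 bases are printed for Trpm5, Avil and Sucnr1, which had r of 0.77 to 0.88 with each other and lie on different chromosomes. Capitals mark matches on either strand to ATGCAAAT, the octamer that POU factors are known to bind, or to its first 7 letters, ATGCAAA, which is contained in it.
Trpm5 (chr7:143094643-143094892, minus strand): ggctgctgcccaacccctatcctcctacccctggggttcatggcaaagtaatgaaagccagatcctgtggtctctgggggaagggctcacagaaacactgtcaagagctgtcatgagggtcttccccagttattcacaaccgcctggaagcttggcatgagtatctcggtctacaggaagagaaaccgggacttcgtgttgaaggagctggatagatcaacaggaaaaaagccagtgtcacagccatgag
Avil (chr10:127000459-127000708, plus strand): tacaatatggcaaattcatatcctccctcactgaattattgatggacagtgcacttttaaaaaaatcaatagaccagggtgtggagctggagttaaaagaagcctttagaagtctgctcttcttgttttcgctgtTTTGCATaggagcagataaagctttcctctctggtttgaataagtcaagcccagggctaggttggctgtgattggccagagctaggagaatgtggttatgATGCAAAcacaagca
Sucnr1 (chr3:60081619-60081868, plus strand): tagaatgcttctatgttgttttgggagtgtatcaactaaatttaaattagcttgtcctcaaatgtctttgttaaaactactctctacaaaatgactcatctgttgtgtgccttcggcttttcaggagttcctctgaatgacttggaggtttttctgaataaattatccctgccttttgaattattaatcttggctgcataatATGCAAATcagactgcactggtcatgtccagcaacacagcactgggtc
The full octamer was found once in the Sucnr1 window, beginning 48 bases before the start site, and in none of the other members' windows. The 7 letters were found at 2 places in the Avil window, beginning 115 and 15 bases before the start site, the first of them on the opposite strand. Of all 32851 promoter windows, 1.74% hold the octamer and 4.63% the 7 letters. A match is a description of sequence, and these letters were chosen after several short motifs had been looked at.

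The genes whose pattern over the 15 mice was most like the mean of the scaled members were Sh2d7 (r = 0.91), Alox5ap (r = 0.88), Gpr180 (r = 0.88), Fam216a (r = 0.88), Rcbtb2 (r = 0.86), Tm2d2 (r = 0.85), Igfbp7 (r = 0.85), Gm10591 and Gm13304 (both r = 0.84) and Polr1c (r = 0.81). The median r over 13363 genes was 0.10 and the 95th percentile 0.59. Gm10591 and Gm13304 had the same values in every mouse and are near-identical copies, so their reads cannot be assigned with certainty. Sh2d7, an adaptor with an SH2 domain, measured 2.88, 2.76, 2.05, 3.00 and 2.00 FPKM in water, 3.59, 2.49, 1.96, 3.37 and 2.25 FPKM in low PAC and 3.14, 1.83, 3.81, 2.26 and 2.66 FPKM in high PAC mice. Its highest mice were again high PAC mouse 3 and low PAC mouse 1. Alox5ap, the protein that presents arachidonic acid to ALOX5, measured 4.20, 3.77, 3.67, 5.13 and 4.70 FPKM in water, 5.61, 4.07, 4.39, 5.21 and 3.78 FPKM in low PAC and 5.10, 4.13, 7.19, 3.25 and 4.76 FPKM in high PAC mice. High PAC mouse 3 was highest here as well.

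Gene by gene, the 3 most alike differed. Dclk1 was followed by Rgs13 (r = 0.92), Rnf34 (0.88) and Kctd12 (0.87), Pou2f3 by Sh2d7 (0.94), Stn1 (0.91) and Grrp1 (0.88), and Trpm5 by Tm2d2 (0.90), Sh2d7 (0.87) and Gm10591 (0.85). Alox5 was followed by Nme7 (0.90), Endog (0.86) and 1110004E09Rik (0.84), Avil by Mblac1, Spata5 and Ndufaf5 (each 0.87), and Sucnr1 by Commd6 (0.87), Strip2 (0.85) and Afp (0.83). Gfi1b was closest to Polr1c and Rnf34 (both 0.87) and Igfbp7 (0.84), and Il25 to Cx3cr1 (0.91), Slc29a2 (0.84) and Rnf114 (0.83). Ptgs1 was followed by Ms4a4d (0.92), Pdgfd (0.89) and F3 (0.87), none of which was among the genes most like another member. All of these are r over the same 15 libraries, given without a test.

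Ptgs1 moved with markers of enteric nerves and, at a similar r, of smooth muscle, but only nerves passed correction, by Pearson r alone. With the mean log2 level of 9 enteric neuron and glia markers it had r = 0.64 and rho = 0.70 (permutation p = 0.00015 and 0.00187, adjusted p = 0.0135 and 0.0867 over 90 relations of member and marker list). With 6 smooth muscle markers r was 0.62 and rho 0.61 (permutation p = 0.00274 and 0.0142, adjusted p = 0.0551 and 0.183). With the 2 most distant mice left out r was 0.63 and 0.59. With 7 general epithelial markers Ptgs1 had r = -0.56 and rho = -0.58 (permutation p = 0.0575 and 0.0572, adjusted p = 0.402 and 0.336). The 2 water mice with the least smooth muscle RNA, 1 and 3, had the lowest Ptgs1 of their group, and low PAC mouse 4, with the least in its group, had the lowest of all 15 at 7.87 FPKM. High PAC went otherwise. Mouse 3 had the least smooth muscle RNA there (673 FPKM), and its Ptgs1 of 10.49 FPKM was above the 9.83 FPKM of mouse 4. Trpm5 had r = 0.01 with the neuron and glia markers and -0.04 with the smooth muscle markers. The 9 neuron and glia markers summed to 10.9 to 30.3 FPKM in water, 21.1 to 31.2 FPKM in low PAC and 29.2 to 36.8 FPKM in high PAC mice, and none was at 0 throughout a group. In high PAC against water 9 of the 9 had a log2 fold change above 0 (median 0.57), 3 of them with an unadjusted p under 0.05 and 0 with an adjusted one, where 50.5% of all genes were above 0 and 4.37% were so with an unadjusted p under 0.05. Other markers of the gut wall were also above 0 in this comparison, 6 of 6 for smooth muscle (median 0.44) and 4 of 4 for mesothelium (median 0.93), none with an unadjusted p under 0.05. Avil and Dclk1, which are found in neurons as well as tuft cells, had r = -0.14 and 0.22 and rho = -0.22 and 0.13 with the neuron and glia markers (permutation p = 0.389 and 0.338 by r, 0.313 and 0.626 by rho, adjusted p = 0.657 and 0.633, and 0.665 and 0.796). Water mice 1 and 3 were the lowest of their group in both nerve and smooth muscle markers. Nerve RNA therefore cannot be told apart from other gut wall RNA here. The part of either in the levels of Ptgs1, Avil and Dclk1 was not tested.

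**Figure D5:**
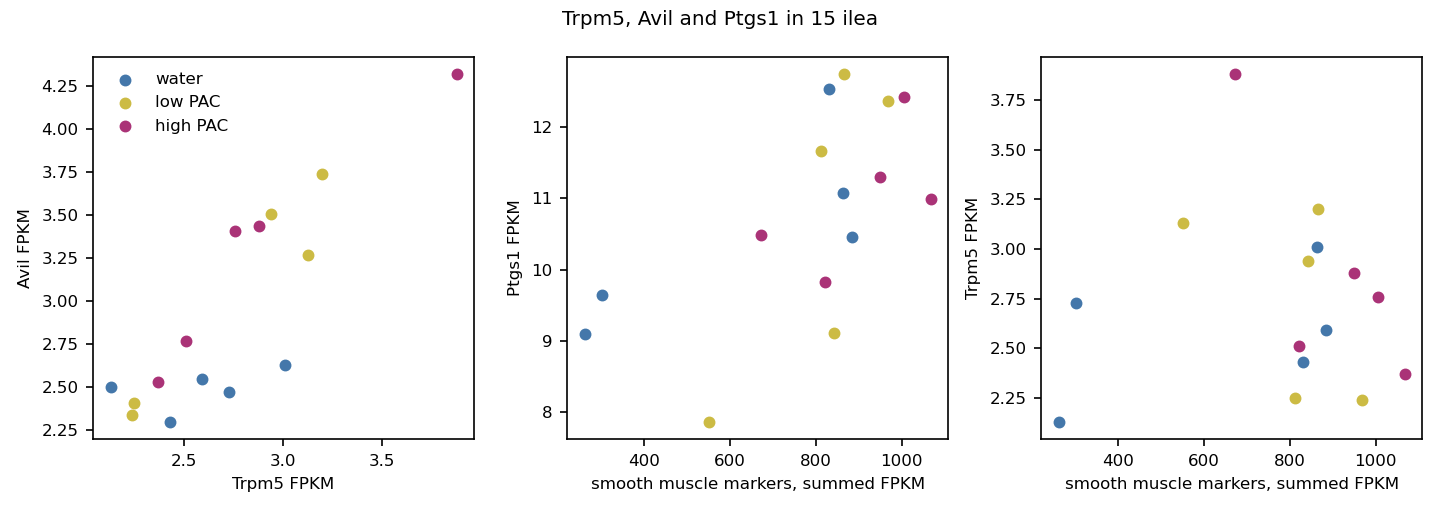
FPKM of Avil against Trpm5 (left), and FPKM of Ptgs1 (middle) and Trpm5 (right) against the summed FPKM of 6 smooth muscle markers; each point is 1 mouse, coloured by group. Avil climbs with Trpm5 (r = 0.88 after group means were subtracted). With the smooth muscle markers Ptgs1 has r = 0.62 on the log2 scale, which did not pass correction, and Trpm5 has r = -0.04.

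One other relation passed correction over the 90. Trpm5 had r = 0.75 and rho = 0.71 with 8 mast cell markers (permutation p = 0.00096 and 0.00255, adjusted p = 0.0432 and 0.0867), and r = 0.61 with the 2 most distant mice left out. Of those markers Kit lay at 7.25 to 14.4 FPKM, Mcpt1 at 0.36 to 8.22 FPKM and Mcpt2 at 0.06 to 5.54 FPKM, while the mast cell genes Cpa3, Tpsb2, Cma1, Mcpt4 and Ms4a2 did not exceed 0.40 FPKM in any mouse. The part of mast cells in the level of Trpm5 was not tested.

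Of 17 further genes known from epithelial tuft cells, 14 were listed and 8 passed the filter. None of the 8 had an adjusted p under 0.05, or an unadjusted p under 0.05, in any comparison with water, and with 8 genes this cannot be told apart from the 14.8% and 3.61% of all genes with an unadjusted p under 0.05 in high and low PAC. Il17rb, a receptor for IL-25, measured 2.26 ± 0.492 FPKM in water, 2.52 ± 0.224 in low PAC and 2.66 ± 0.426 in high PAC (SD, n = 5). Chat, which makes acetylcholine, measured 0.288 ± 0.197, 0.328 ± 0.115 and 0.420 ± 0.0803 FPKM, with log2 fold change 0.46 for high PAC against water (adjusted p = 0.548). Cd24a and Espn are also expressed by other epithelial cells and stood far higher, at 195 ± 34.1 and 75.9 ± 6.86 FPKM in water mice, with log2 fold changes of 0.13 and -0.21 for high PAC against water (adjusted p = 0.646 and 0.440).

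Another 13 tuft cell genes are shared with leukocytes, and their levels went in part with the B cell sets described above. FPKM of Lrmp, Spib, Ptpn6, Vav1 and Inpp5d (5 of 13) did not overlap between the 7 mice with many and the 8 with few B cell transcripts, where 2.8% of all genes tested did not. Spib was 7.49 to 21.6 FPKM in the 7 and 1.39 to 3.19 FPKM in the 8. The ranges of all 9 members overlapped between these sets, which is also what the share over all genes gives for 9 genes, and Trpm5 was 2.13 to 3.88 FPKM in the 7 and 2.37 to 3.20 FPKM in the 8. After group means were subtracted, Siglecf (r = 0.69, rho = 0.64, permutation p = 0.0108 and 0.0163) and Rgs13 (r = 0.68, rho = 0.57, permutation p = 0.0117 and 0.0352) did not pass correction over the 13 genes in their relation with Trpm5, with adjusted permutation p = 0.0509 each by r, and 0.106 and 0.153 by rho. With the 2 most distant mice left out their r was 0.55 and 0.43. Rgs13 measured 8.89 ± 4.92 FPKM in high PAC and 5.65 ± 0.645 FPKM in water mice (log2 fold change 0.55, adjusted p = 0.367), with its highest value, 16.5 FPKM, in a mouse of the set with many B cell transcripts. Ptpn6, Skap2 and Plcg2, the most abundant of the list in water mice, had log2 fold changes of -0.08, -0.21 and -0.05 for high PAC against water (adjusted p = 0.918, 0.316 and 0.912). No gene of this list had an adjusted p under 0.05 in any comparison.

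In the taste cascade, 8 of 12 genes passed the filter and none had an adjusted p under 0.05. Itpr3, the inositol trisphosphate receptor that releases calcium upstream of TRPM5 and that many epithelial cells express, had the smallest p of all the lists on tuft cell biology. It measured 20.9 ± 1.10 FPKM in water, 19.6 ± 1.58 in low PAC and 17.2 ± 1.43 in high PAC (SD, n = 5). Every high PAC mouse (15.1 to 19.0 FPKM) lay below every water mouse (20.1 to 22.4 FPKM), with log2 fold change -0.38 and adjusted p = 0.133. Of all genes tested, 4.64% had ranges that did not overlap in this comparison, and Itpr3 is named for its small p. Gnb1, a G protein subunit of most cells, was at -0.19 (adjusted p = 0.295) for high PAC against water, and Trpm4, the relative of Trpm5, at -0.09, and neither passed the test. Gnat3, the taste G protein, measured 0.31 to 0.87 FPKM over the 15 mice.

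Of 26 genes of eicosanoid synthesis and response, 24 passed the filter and none had an adjusted p under 0.05. For high PAC against water 1 was above and 3 were below water at an unadjusted p under 0.05, a share near that of all genes (4.37% and 10.4%). The leukotriene A4 hydrolase Lta4h was 117 ± 5.21 FPKM in water and 106 ± 5.98 FPKM in high PAC mice (log2 fold change -0.24, adjusted p = 0.196), and Hpgd, which degrades prostaglandins, had log2 fold change -0.31 (adjusted p = 0.295). Ptgir, the prostacyclin receptor, was the one above water, at 0.874 ± 0.207 FPKM against 0.534 ± 0.186 (log2 fold change 0.62, adjusted p = 0.271). Ptges3, a prostaglandin E synthase, was at 0.10 (adjusted p = 0.648). Ptgs2, the inducible relative of Ptgs1, measured 1.38 to 1.70 FPKM in water mice.

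The type 2 cytokines of the IL-25 circuit were at the limit of detection. Il4, Il5 and Il13 did not exceed 0.17 FPKM in any mouse, and Retnlb, a goblet cell gene driven by interleukin 13, had medians of 0.18 FPKM in each group with single mice at 1.56 (water) and 5.99 FPKM (low PAC). Of 16 genes of the circuit, 10 passed the filter and none had an adjusted p under 0.05, but 4 were below water at an unadjusted p under 0.05 in high PAC mice, where 10.4% of all genes were. The 4 were Il33, Gata3, Il13ra1 and Traf3ip2. How many genes fell below water depended on the normalization. Over all genes 1500 were lower and 628 higher here, and 816 and 1505 with upper-quartile normalization. Il33, an alarmin of stromal and epithelial cells, was 7.66 ± 2.25 FPKM in water and 6.02 ± 0.969 FPKM in high PAC mice (log2 fold change -0.45, adjusted p = 0.269). Gata3, the factor of type 2 lymphocytes, was 0.752 ± 0.0963 FPKM and 0.610 ± 0.113 FPKM (log2 fold change -0.40, adjusted p = 0.271). The receptor chain Il13ra1 had log2 fold change -0.25 (adjusted p = 0.274). Stat6, which acts downstream of it, had -0.11 (adjusted p = 0.393) and Il4ra, the other receptor chain, -0.08 (adjusted p = 0.772).

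Of 20 relatives of the members, 14 passed the filter and none had an adjusted p under 0.05. Alox15 was 1.07 ± 0.329 FPKM in water and 0.650 ± 0.195 FPKM in high PAC mice (log2 fold change -0.81, adjusted p = 0.256), and Vil1 had log2 fold change -0.33 (adjusted p = 0.290). Scin and Gsn, which like Avil belong to the gelsolin family, had -0.00 and 0.18 (adjusted p = 0.990 and 0.564). Oxgr1, the relative of Sucnr1, did not exceed 0.03 FPKM in any mouse. Goblet cells, the other secretory cells that increase in a type 2 response, had summed marker FPKM of 8625 to 11411 in water, 10047 to 11355 in low PAC and 9267 to 16849 in high PAC mice, with 0 of 7 markers at an unadjusted p under 0.05 in high PAC against water, where 14.8% of all genes were, a share from which 0 of 7 cannot be told apart. Of 8 mast cell markers 3 passed the filter, and 2 of these were lower in high PAC than in water mice at an unadjusted p under 0.05 (10.4% of all genes) and none after adjustment. Their log2 fold changes were -1.96 for Mcpt1 (adjusted p = 0.268), -2.76 for Mcpt2 (adjusted p = 0.217) and 0.25 for Kit (adjusted p = 0.353), and the proteases Cpa3 and Tpsb2, at or under 0.40 FPKM, were not tested.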

How the data were processed

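RNA of 15 ilea was sequenced by the authors on the BGISEQ-500 platform. Per the study's methods reads were cleaned with SOAPnuke and mapped with Bowtie2 to mm10, while the submitters' processing notes name HISAT and DESeq2; the counting tool is not given in the sources used here. The deposited tables give 1 expected count (an estimated count, 88.6% to 89.5% of them whole) and 1 FPKM value per gene and mouse. Genes not listed were set to 0. The main test, edgeR 4.0.16 under R 4.3.3, took the rounded values (TMM, filterByExpr, quasi-likelihood, 1 model of 3 groups), with p-values adjusted over 14386 genes; the study's NOIseq was not used. Single genes were tested by exact permutation (252 splits) of log2(FPKM + 0.1). Co-variation used values less the group mean, with 100000 permutations within groups. The marker scores are means of such values. DESeq2 1.42.0 and limma 3.58.1 were alternatives. The edgeR and limma procedures were checked on simulated counts.

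Replicate numbers did not pair the mice. The methods give 5 separate mice per group, and the labels name no batch. Members, gene lists and tests were chosen with earlier results of these data known. Genes beyond the members were named by rule: the 10 most like the members' mean, the 3 most like each member and, per list, any with an adjusted p under 0.05, the 3 highest in water mice and the 2 with the smallest p in high PAC against water; others (such as Siglecf, Spib, Pou2f1, Gnat3, Ptgs2, Retnlb, Oxgr1 and the cell markers) were chosen after their values were seen. No protein sequences were used here. One item is not reported here.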

Additional observations from a re-analysis of the deposited data

Results flagged for a closer look

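In 27 combinations of member and group, each with 5 mice, 2 held a mouse whose distance from the nearest of the others exceeded 0.71 of the group's range, the 95% critical value of Dixon's test; chance alone flags about 1 in 20. Il25 was 0.23 FPKM in water mouse 1, which is 4 expected counts, against 0.06 FPKM in each of the other 4 water mice. Alox5 was 1.65 FPKM in water mouse 4, where the other water mice had 0.92 to 1.08 FPKM, and that mouse also had the highest Sucnr1 (1.5 FPKM) and the highest summed mast cell marker FPKM (24.9) of its group. Both are given as values.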

How the results depend on the processing

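No setting gave any member an adjusted p under 0.05 in any comparison. The count at an unadjusted p under 0.05 for high PAC against water, 0 as reported, became 1 (Avil) under upper-quartile normalization, without the filter on low counts, with the epithelial marker score as a covariate, with the 2 groups alone and with limma on log2(FPKM + 0.1) or log2(FPKM + 1); with single mice left out it ranged from 0 to 1, being 1 without high PAC mouse 2 or 4. Avil's unadjusted p ranged over these fits from 0.0280 (limma, pseudocount 1) to 0.144 (without high PAC mouse 3). Ptgs1, near 0 throughout, turned positive: with upper-quartile normalization, limma at pseudocount 0.1 and limma at pseudocount 1 its log2 fold change was 0.0260, 0.0634 and 0.0582 for high PAC against water, 0.00252, 0.00981 and 0.0103 for low PAC against water and 0.0235, 0.0536 and 0.0480 for high PAC against low PAC, the last being 0.00367 unfiltered and 0.00128 for the 2 groups alone. Upper-quartile normalization also put the median of all genes at 0.07 for high PAC against water and limma on log2(FPKM + 0.1) at 0.09; the split of genes at an unadjusted p under 0.05 was then 1505 higher and 816 lower, and 2269 and 528, against 628 and 1500. With DESeq2 112 of all genes tested were called for high PAC against water where edgeR called 2, and 0 members were among them.

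With 1 mouse left out, log2 fold changes of some members crossed 0. For high PAC against water they ranged over -0.00389 to 0.242 (Pou2f3), -0.0298 to 0.123 (Trpm5), -0.0484 to 0.582 (Sucnr1) and -0.0811 to 0.0286 (Ptgs1), with the members' median at -0.00389 to 0.214. For low PAC against water they ranged over -0.122 to 0.165 (Pou2f3), -0.0176 to 0.106 (Trpm5), -0.0134 to 0.537 (Sucnr1), -0.0244 to 0.258 (Alox5) and -0.0884 to 0.0650 (Ptgs1), with the members' median at -0.000278 to 0.135. For high PAC against low PAC they ranged over -0.0650 to 0.237 (Pou2f3), -0.0874 to 0.0777 (Trpm5), -0.337 to 0.325 (Sucnr1), -0.0318 to 0.139 (Avil), -0.0856 to 0.119 (Dclk1) and -0.101 to 0.0530 (Ptgs1), with the members' median at -0.0856 to 0.119. The cause of these shifts was not tested. The median r over pairs was 0.38 to 0.61 with 1 mouse left out and 0.31 and 0.30 within the mice of low and of high B cell marker sums, a split chosen after seeing the data.

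Mice share replicate numbers across groups, but same-numbered mice did not deviate together (r from -0.31 to 0.45), so the numbers do not pair them. With the number as a replicate block, 2, 0 and 0 of all genes were called for high PAC against water, low PAC against water and high against low PAC, and 0 members; the unadjusted counts were 1840, 471 and 460, against 2128, 520 and 559. Depth limits Il25 (0 to 4 counts per mouse) and Gfi1b (4 to 12).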
